A study of Mus musculus with 12 samples.

Results

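The genes described here are 10 genes of MHC class I antigen presentation, chosen by their symbols with earlier results of these data known. They are the heavy chain genes H2-K1 and H2-D1, the light chain gene B2m, the peptide transporter genes Tap1 and Tap2, the tapasin gene Tapbp, the immunoproteasome subunit genes Psmb8, Psmb9, and Psmb10, and the aminopeptidase gene Erap1. Of these 10 genes, 8 had a row in the table of 12591 genes. Psmb8 and Psmb9 had none, and only their upstream sequences are analysed here. The authors kept genes with at least 1 CPM (a gene's reads scaled to a common library size) in every sample, so that no gene could enter the table through the treatment in which it was high.

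The values come from confluent immortalized mouse embryonic fibroblasts (MEFs) of PER2::LUC mice (strain label C57 PER2::LUC), prepared from heterozygous knock-ins that express PER2, a clock protein, joined to luciferase. Polyadenylated RNA was sequenced from 12 dishes, 3 in each of 4 groups, after 24 h without a further addition (CTL) or with 10 μM Deazaneplanocin A (DZ, an inhibitor of the enzyme AHCY that clears S-adenosylhomocysteine), 1 mM adenine, or 1 mM S-adenosylmethionine (SAM, the methyl donor of the cell). All 4 groups, CTL included, contained 3.3 mM HCl. The labels tie no dish to an animal of its own, so that p-values measure the spread between dishes, and in such bulk RNA fewer cells with a transcript and less of it per cell cannot be told apart.

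MHC class I molecules show fragments of the proteins made inside a cell to CD8+ T cells, and nearly all nucleated cells carry them. Peptides are cut by the proteasome, in which interferon-inducible subunits can take the place of the constitutive ones, carried into the endoplasmic reticulum by the transporter of TAP1 and TAP2, trimmed there by ERAP1, and loaded with the help of tapasin onto a heavy chain bound to beta-2 microglobulin. In fibroblasts these genes are known to be expressed at a basal level and to be raised by interferons, through IRF factors and the transactivator NLRC5, and by NF-κB.

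The reads on listed genes numbered between 45649534 and 56789090 per library, and each of the 8 genes had at least 206 reads in every library (Tap1 the fewest, B2m the most, with up to 28819). Of 10 fibroblast markers 8 were in the table (Col1a1, Col1a2, Col3a1, Vim, Fn1, Pdgfra, Pdgfrb, and Thy1, but not Dcn or Lum), with a summed level between 21841 and 22281 CPM in CTL, 27665 and 28259 in DZ, 24224 and 26540 in adenine, and 15862 and 17240 in SAM. The lower sum in SAM came from Fn1, the highest of them in CTL, with a mean of 13.56 log2 CPM in CTL and 11.99 in SAM. Each of the other markers in the table had a higher mean in SAM than in CTL. Of 10 leukocyte markers only the lysosomal protein gene Cd68 was in the table, at 3.03 to 4.0 CPM in CTL, 2.73 to 3.78 in DZ, 10.8 to 12.3 in adenine, and 15.6 to 17.7 in SAM. Of 5 markers of MHC class II presentation only the invariant chain gene Cd74 was listed, at 102 to 108 CPM in CTL, 83.5 to 92.5 in DZ, 126 to 142 in adenine, and 166 to 182 in SAM. The pan-leukocyte gene Ptprc and the class II genes H2-Aa and H2-Ab1 were not in the table, nor were any of 4 endothelial and 4 epithelial markers, and a part of Cd68 or Cd74 in the results was not tested.

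Tests were made with limma in a single model of all 12 libraries, on log2 CPM as deposited, and a gene was called at a Benjamini-Hochberg FDR under 0.01 over all 12591 genes. Under DZ all 8 genes were called higher than in CTL, by between 1.36-fold (H2-K1) and 2.63-fold (Tap1), where 22.6% of all genes tested were called higher and 23.4% lower. Under adenine 5 were higher (H2-D1, B2m, Tapbp, Psmb10, and Erap1), H2-K1 and Tap2 were lower, and Tap1 was not called, where 30.6% of all genes were higher and 31.0% lower. Under SAM 6 were higher (H2-D1, B2m, Tap1, Tapbp, Psmb10, and Erap1), H2-K1 was lower, and Tap2 was not called, where 33.7% of all genes were higher and 35.7% lower. The median log2 fold change of the 8 genes was 0.60 under DZ, 0.19 under adenine, and 0.58 under SAM, against -0.0057, -0.0030, and -0.015 over all genes. The 3 comparisons share the CTL libraries. Tested against a required log2 fold change of 0.5 in either direction, 3 of the 8 genes were called under DZ (2.88% of all genes), 1 under adenine (16.0%), and 4 under SAM (22.6%).

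**Figure D1:**
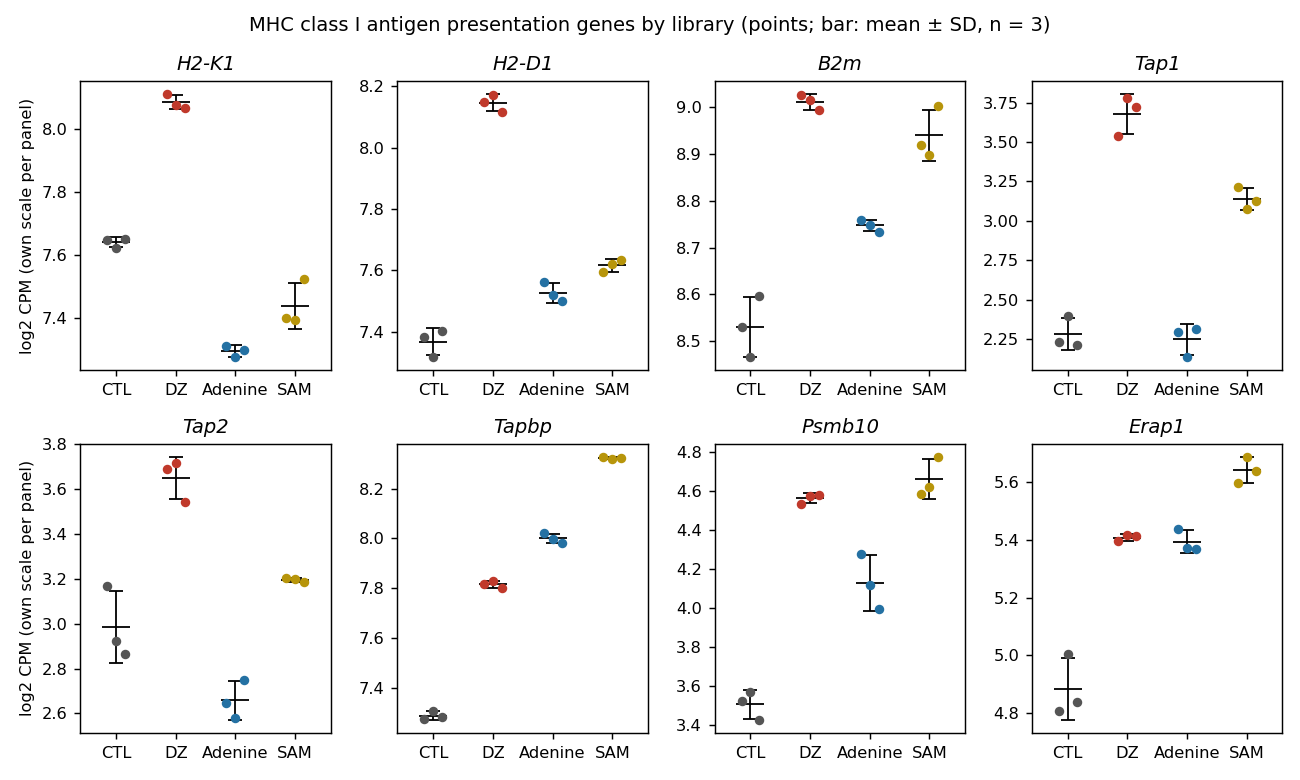
Log2 CPM (vertical axis, a scale of its own in each panel) of the 8 genes in each library by group, with points for the 3 libraries of a group and bars for the mean ± SD. The DZ libraries are the highest for H2-K1, H2-D1, Tap1, and Tap2, the SAM libraries for Tapbp, Erap1, and, by a narrow margin over DZ, Psmb10, and adenine lies below CTL for H2-K1 and Tap2.

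**Figure D2:**
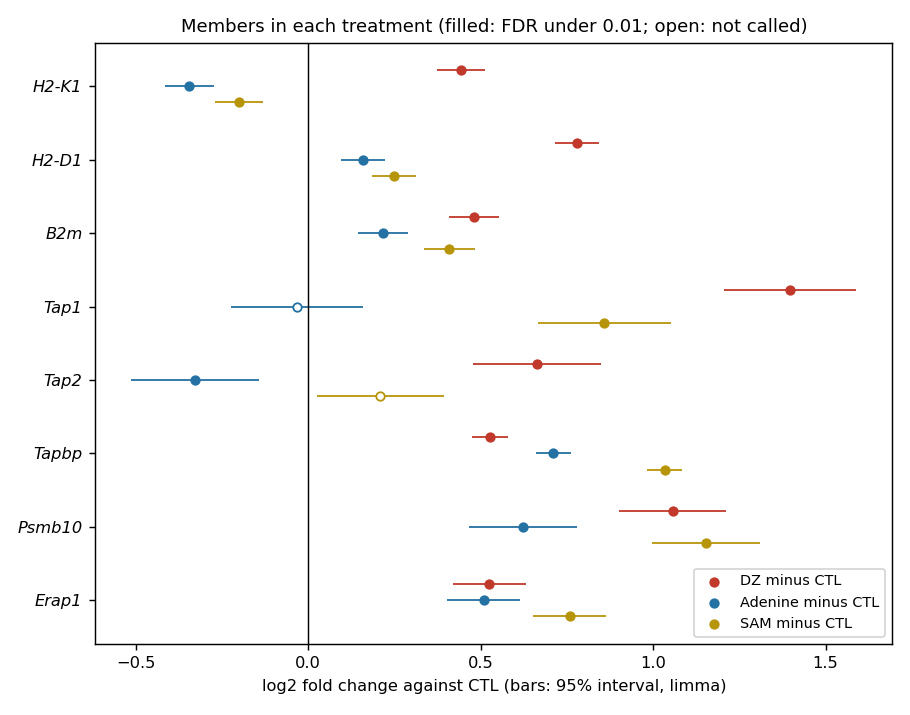
Log2 fold changes against CTL (horizontal axis) of the 8 genes under DZ, adenine, and SAM, with 95% intervals from limma; filled points passed an FDR of 0.01. All 8 points of DZ lie to the right of 0, from 0.44 to 1.40, while those of adenine run from -0.34 (H2-K1) to 0.71 (Tapbp) and those of SAM from -0.20 (H2-K1) to 1.15 (Psmb10).

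Divided by the length of the canonical transcript, the levels in CTL ran from B2m (mean 8.41 log2 CPM per kb) through H2-K1 (6.95), H2-D1 (6.28), Tapbp (5.71), Psmb10 (3.12), and Erap1 (2.39) to Tap2 (0.99) and Tap1 (0.65), and neighbours in this order did not overlap between libraries. B2m was the highest in all 4 groups. Under DZ, Tap1 (2.04 log2 CPM per kb) stood above Tap2 (1.66), whereas under adenine the libraries of the pair overlapped (0.61 and 0.67). Under SAM, Tapbp (6.75) reached the level of H2-K1 (6.74), with libraries that overlapped, and both were above H2-D1 (6.53).

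The classical heavy chains, which hold the peptide at the cell surface, did not move together. H2-K1 (ENSMUSG00000061232.17, GRCm39 chr17:34214987-34219321, minus strand) was at 7.65, 7.62, and 7.65 log2 CPM in the CTL libraries, 8.11, 8.08, and 8.07 in DZ, 7.31, 7.28, and 7.30 in adenine, and 7.40, 7.39, and 7.52 in SAM. The groups did not overlap, with DZ above CTL and both adenine and SAM below it. In limma its log2 fold change was 0.44 under DZ (standard error 0.033, adjusted p = 3.07e-08), adenine gave -0.34 (adjusted p = 1.63e-07), and SAM gave -0.20 (adjusted p = 4.69e-05). The call under SAM was lost with plain read totals as scaling (-0.079) and with quantile normalization (-0.096).

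H2-D1 (ENSMUSG00000073411.13, chr17:35481691-35486475, plus strand) was at 7.38, 7.32, and 7.40 log2 CPM in CTL, 8.15, 8.17, and 8.12 in DZ, 7.56, 7.52, and 7.50 in adenine, and 7.59, 7.62, and 7.63 in SAM. All treated libraries were above all CTL libraries, and those of DZ stood far above the others. Against CTL, H2-D1 rose by 0.78 on the log2 scale under DZ (standard error 0.030, adjusted p = 2.71e-11 from limma), adenine gave 0.16 (adjusted p = 1.84e-04), and SAM gave 0.25 (adjusted p = 1.55e-06).

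The ratio of the heavy chains within a library does not depend on how the library was scaled. The log2 ratio of H2-K1 to H2-D1 was 0.27 ± 0.029 (SD, n = 3) in CTL, -0.062 ± 0.030 in DZ, -0.23 ± 0.028 in adenine, and -0.18 ± 0.059 in SAM. Every treated library was below every CTL library, with differences of -0.34 (standard error 0.024), -0.50 (0.023), and -0.45 (0.038), each with an exact two-sided permutation p of 0.1, the smallest that 3 dishes against 3 allow (0.109 adjusted over 12 such tests). H2-K1 thus lost ground to H2-D1 in all 3 treatments, also under DZ, where both genes were higher than in CTL. Reads of these genes can be hard to assign: of all stretches of 76 bases (the read length) in the canonical transcript, 1.42% of those of H2-K1 and 6.76% of those of H2-D1 occur in another gene. Those of H2-K1 were found most often in H2-D1 and H2-Q1, and those of H2-D1 most often in H2-Q1, H2-T9, H2-T23, and H2-Q7.

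The sequences upstream of the heavy chains are shown because much of their length is alike, and that of B2m because it is known to carry elements of the same kinds. Whether these sequences bear on the changes of the genes was not tested. They are the 250 bases before the RefSeq start (mouse build GRCm38.p6, gene strand), with matches to the searched motifs in capitals.
H2-K1: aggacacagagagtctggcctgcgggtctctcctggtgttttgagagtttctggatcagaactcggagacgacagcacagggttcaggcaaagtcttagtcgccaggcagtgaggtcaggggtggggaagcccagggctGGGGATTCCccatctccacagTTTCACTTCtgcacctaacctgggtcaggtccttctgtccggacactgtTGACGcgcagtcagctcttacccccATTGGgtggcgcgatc
H2-D1: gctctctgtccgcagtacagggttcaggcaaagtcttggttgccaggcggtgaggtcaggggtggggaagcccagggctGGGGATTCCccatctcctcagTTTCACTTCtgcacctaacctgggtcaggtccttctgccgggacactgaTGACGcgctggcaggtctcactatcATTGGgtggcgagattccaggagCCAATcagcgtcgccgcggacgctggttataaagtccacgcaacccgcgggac
B2m: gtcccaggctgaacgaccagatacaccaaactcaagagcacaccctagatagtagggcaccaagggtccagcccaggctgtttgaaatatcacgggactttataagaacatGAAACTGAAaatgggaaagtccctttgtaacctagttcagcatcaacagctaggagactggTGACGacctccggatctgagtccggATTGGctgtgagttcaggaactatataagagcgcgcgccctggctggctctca
They lie at chr17:34000348-34000597 (minus strand), chr17:35262844-35263093 (plus strand), and chr2:122147437-122147686 (plus strand). In a local alignment of the 250 bases upstream of H2-K1 and H2-D1, 161 of the 177 aligned columns (91.0%) were identical, and the bases outside it were not compared. RefSeq lists a further start of H2-K1, which is not shown.

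Motifs were searched on both strands from 250 bases before to 50 after the start in 9 of the 10 genes and in 27025 mouse genes. The interferon-stimulated response element core in the spelling GAANNGAAA was found in H2-K1 and H2-D1 (8.68% of all genes hold it) and in the spelling GAAANNGAA in B2m and Erap1 (9.76%). In Erap1 a pair of overlapping matches ran across the start, from -9 to -1 and from -3 to 5. The κB site GGGNNTTCC was found in H2-K1 and H2-D1 (6.58% of all genes), and the gamma-activated sequence TTCNNNGAA in Psmb8 (9.55%). No other spelling of the κB site was searched, so a gene without this match may still hold a κB site of another spelling. The shorter letters TGACG, a CRE-like site, were in 5 of the 9 genes (23% of all genes), and the CCAAT box was in 6 of them (41.1%). Both counts include Tap1 and Psmb9, whose windows overlap on opposite strands. Their TGACG match is the same bases counted for each gene, and so is their CCAAT match.

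The heavy chains held these motifs in the same order and on the same strands. In H2-K1 the κB site stood at -111 to -103, the response element core at -90 to -82, TGACG at -41 to -37, and a CCAAT box at -16 to -12. In H2-D1 the same 4 stood at -171 to -163, -150 to -142, -101 to -97, and -76 to -72. B2m had its response element core at -139 to -131, TGACG at -78 to -74, and a CCAAT box at -53 to -49, and none of these matches overlapped another. A match is a run of letters and not a bound site, and the window of Psmb10 held none of these letters.

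**Figure D3:**
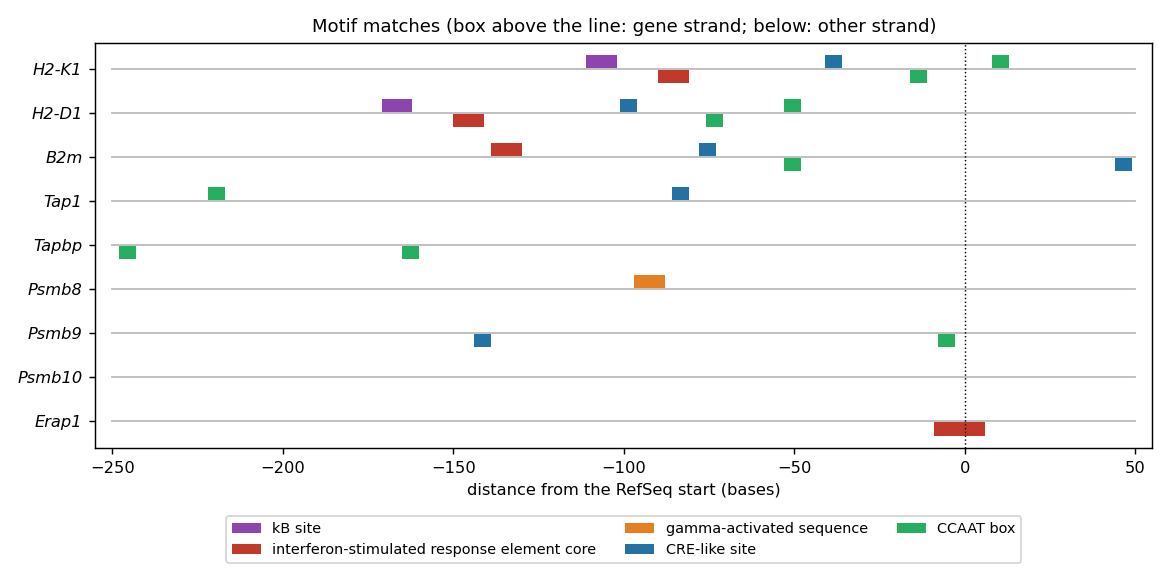
Positions of motif matches (horizontal axis, bases from the RefSeq start, 0 marking the start) in 9 of the genes, with boxes above a line for the strand of the gene and below it for the other strand. The κB site, response element core, CRE-like site, and CCAAT box follow each other in the same order in H2-K1 and H2-D1, between -111 and -12 in H2-K1 and between -171 and -72 in H2-D1.

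B2m (ENSMUSG00000060802.9, GRCm39 chr2:121977957-121983594, plus strand), the gene of the light chain that pairs with class I heavy chains, was at 8.53, 8.47, and 8.60 log2 CPM in CTL, 9.03, 9.01, and 8.99 in DZ, 8.76, 8.75, and 8.73 in adenine, and 8.92, 8.90, and 9.0 in SAM. All treated libraries were above all CTL libraries, and DZ and SAM overlapped. DZ raised B2m by 0.48 on the log2 scale (standard error 0.034, adjusted p = 1.9e-08 from limma), adenine by 0.22 (adjusted p = 3.88e-05), and SAM by 0.41 (adjusted p = 2.39e-08). Quantile normalization gave 0.66 under SAM.

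Set against B2m, H2-K1 fell behind under adenine and SAM, and H2-D1 did so by much less. The log2 ratio of H2-K1 to B2m was -0.89 ± 0.051 (SD, n = 3) in CTL, -0.93 ± 0.011 in DZ, -1.45 ± 0.019 in adenine, and -1.50 ± 0.020 in SAM. The DZ libraries overlapped those of CTL (exact two-sided permutation p of 0.4), while the adenine and SAM libraries were all lower (exact p of 0.1). The differences from CTL were -0.038 (standard error 0.030) under DZ, -0.56 (0.032) under adenine, and -0.61 (0.032) under SAM. The log2 ratio of H2-D1 to B2m was -1.16 ± 0.026 in CTL, -0.87 ± 0.020 in DZ, -1.22 ± 0.020 in adenine, and -1.32 ± 0.045 in SAM. It was higher than in CTL in every DZ library and lower in every adenine and SAM library (exact two-sided permutation p of 0.1 in each). Its differences from CTL were 0.30 (standard error 0.019) under DZ, -0.057 (0.019) under adenine, and -0.16 (0.030) under SAM. The highest adenine library (-1.198) was only just below the lowest CTL library (-1.194).

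**Figure D4:**
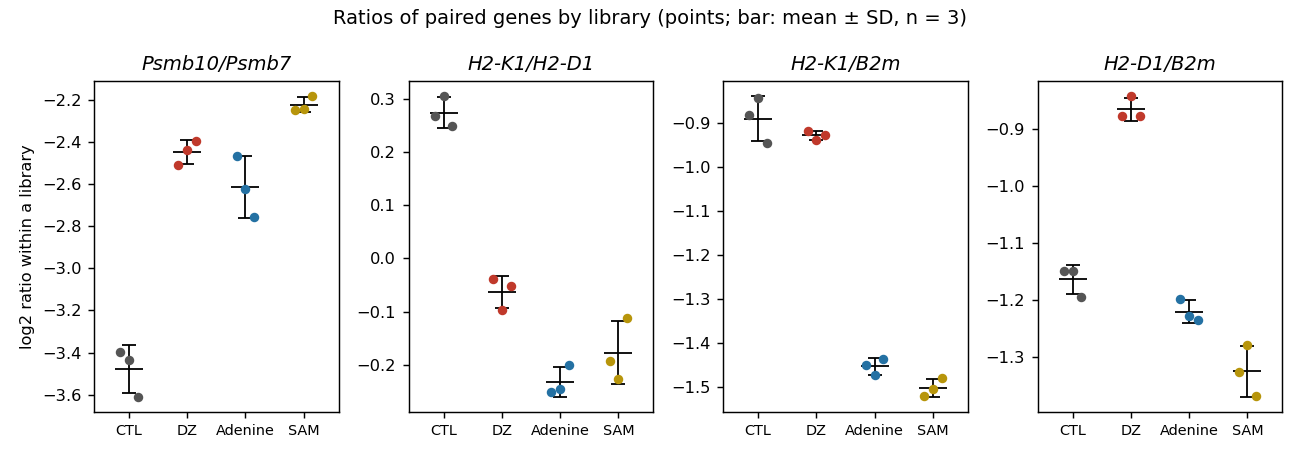
Log2 ratios of paired genes within each library (vertical axis, a scale of its own in each panel) by group, with points for the 3 libraries and bars for the mean ± SD. The ratio of Psmb10 to Psmb7 is above CTL in all treated libraries, that of H2-K1 to H2-D1 is below CTL in all of them, and that of H2-D1 to B2m is above CTL under DZ only.

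Both subunits of the peptide transporter had the lowest levels of the 8 genes. Tap1 (ENSMUSG00000037321.18, chr17:34405996-34416199, plus strand) was at 2.23, 2.40, and 2.21 log2 CPM in CTL, 3.54, 3.78, and 3.72 in DZ, 2.30, 2.13, and 2.31 in adenine, and 3.21, 3.08, and 3.13 in SAM. DZ was above SAM and SAM above CTL with no overlap, whereas adenine and CTL overlapped. The log2 fold change under DZ was 1.40 (standard error 0.090, adjusted p = 6.51e-09 from limma), the largest of the 8 genes in any treatment, and under SAM 0.86 (adjusted p = 3.27e-07). Under adenine it was -0.033, with a 95% interval from -0.22 to 0.16 (adjusted p = 0.757 from limma). Its sign turned without CTL replicate 2 (0.025), without adenine replicate 2 (0.023), and with plain read totals (0.028). Tap1 overlaps Psmb9, which lies on the opposite strand, with 363 bases between the starts of their canonical transcripts.

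Tap2 (ENSMUSG00000024339.13, chr17:34422501-34435829, plus strand) was at 3.17, 2.92, and 2.87 log2 CPM in CTL, 3.69, 3.71, and 3.54 in DZ, 2.65, 2.58, and 2.75 in adenine, and 3.20, 3.20, and 3.18 in SAM. DZ and SAM lay above CTL and adenine below it, although the lowest SAM library and the highest CTL library were close. Tap2 had a log2 fold change of 0.66 under DZ (standard error 0.087, adjusted p = 1.14e-05 from limma), and adenine gave -0.33 (adjusted p = 0.00334). The call under adenine was lost without CTL replicate 1 (-0.24), adenine replicate 1 (-0.32), or adenine replicate 2 (-0.29), with plain read totals (-0.27), and in a fit of only the groups compared (-0.33). Under SAM the log2 fold change of 0.21, with a 95% interval from 0.024 to 0.39, was not called (adjusted p = 0.0386 from limma). Without CTL replicate 1 (0.30) or with plain read totals (0.33) it was called.

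Tapbp (ENSMUSG00000024308.16, chr17:34134873-34148267, plus strand), the gene of tapasin, which bridges the transporter and the empty heavy chain, rose stepwise over the treatments. It was at 7.28, 7.31, and 7.28 log2 CPM in CTL, 7.82, 7.83, and 7.80 in DZ, 8.02, 8.0, and 7.98 in adenine, and 8.33, 8.32, and 8.32 in SAM. No groups overlapped, and the SD of a group was at most 0.019. On the log2 scale it rose by 0.53 with DZ (standard error 0.024, adjusted p = 1.84e-10 from limma), 0.71 with adenine (adjusted p = 9.73e-13), and 1.03 with SAM (adjusted p = 7.59e-15). Tapbp overlaps Zbtb22 on the same strand, and 0.965% of its stretches of 76 bases occur in another gene.

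Psmb10 (ENSMUSG00000031897.10, chr8:106662362-106665077, minus strand), the only immunoproteasome subunit gene of the 3 in the table, was at 3.52, 3.57, and 3.43 log2 CPM in CTL, 4.53, 4.58, and 4.58 in DZ, 4.28, 4.12, and 3.99 in adenine, and 4.58, 4.62, and 4.78 in SAM. All treated libraries were above all CTL libraries. The rise from CTL was 1.06 on the log2 scale with DZ (standard error 0.073, adjusted p = 1.35e-08 from limma), 0.62 with adenine (adjusted p = 1.58e-06), and 1.15 with SAM (adjusted p = 7.81e-10).

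Psmb10 takes the place of the constitutive subunit encoded by Psmb7, and the log2 ratio of the pair was -3.48 ± 0.11 (SD, n = 3) in CTL, -2.45 ± 0.057 in DZ, -2.62 ± 0.15 in adenine, and -2.22 ± 0.036 in SAM. Every treated library was above every CTL library, with differences of 1.03 (standard error 0.073), 0.87 (0.11), and 1.26 (0.069), each with an exact two-sided permutation p of 0.1. The constitutive counterparts Psmb5, Psmb6, and Psmb7 were not called higher in any treatment. Psmb6 was lower under DZ (-0.20), adenine (-0.35), and SAM (-0.18), Psmb5 under adenine (-0.35) and SAM (-0.29), and Psmb7 under adenine (-0.24). Psmb5 (0.070) and Psmb7 (0.023) under DZ and Psmb7 under SAM (-0.10) were not called. The median of the 3 was 0.023 under DZ, -0.35 under adenine, and -0.18 under SAM. The call of Psmb6 under SAM was lost with plain read totals (-0.060) and quantile normalization (-0.12). Psmb7 under SAM was called with median centring (-0.14), without CTL replicate 1 (-0.14), and without SAM replicate 3 (-0.14), and its sign turned with plain read totals (0.019).

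Erap1 (ENSMUSG00000021583.8, chr13:74787687-74841320, plus strand), which trims peptides in the endoplasmic reticulum to a length that fits the groove, was at 4.81, 5.01, and 4.84 log2 CPM in CTL, 5.40, 5.42, and 5.41 in DZ, 5.44, 5.37, and 5.37 in adenine, and 5.60, 5.69, and 5.64 in SAM. DZ and adenine overlapped each other above CTL, and SAM was above both. Erap1 rose by 0.52 on the log2 scale with DZ (standard error 0.049, adjusted p = 3.91e-07 from limma), by 0.51 with adenine (adjusted p = 1.91e-07), and by 0.76 with SAM (adjusted p = 1.16e-09). Erap1 overlaps Cast on the opposite strand. The library kit marks strand, but whether the counting used it is not given in the sources used here.

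The treatments were also set against each other, with the doses as given (10 μM DZ against 1 mM adenine or SAM). At the same dose of 1 mM, 7 of the 8 genes were called higher under SAM than under adenine, where 20.8% of all genes were higher. The differences were 0.89 for Tap1, 0.54 for Tap2, 0.53 for Psmb10, 0.32 for Tapbp, 0.25 for Erap1, 0.19 for B2m, and 0.14 for H2-K1 on the log2 scale. For H2-D1 the difference was 0.089, with a 95% interval from 0.025 to 0.15 (adjusted p = 0.0198 from limma), and it was called with plain read totals (0.15), quantile normalization (0.14), and median centring (0.10). The call of H2-K1 was lost without adenine replicate 2 (0.13) and in a fit of only the groups compared (0.14).

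DZ was above adenine for 6 genes (where 32.1% of all genes were higher), by 1.43 for Tap1, 0.99 for Tap2, 0.79 for H2-K1, 0.62 for H2-D1, 0.43 for Psmb10, and 0.26 for B2m. It was below adenine for Tapbp (-0.18), where 32.2% of all genes were lower. Erap1 differed by 0.016, with a 95% interval from -0.090 to 0.12 (adjusted p = 0.789 from limma). The transporters and heavy chains were thus the genes in which these treatments differed most.

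At the required log2 fold change of 0.5, 4 genes were called between DZ and adenine (13.8% of all genes), 1 between DZ and SAM (20.5%), and 0 between SAM and adenine (2.73%), where 1 gene, Tap1, had an unadjusted p from limma under 0.05.

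DZ was above SAM for 4 genes (where 35.0% of all genes were higher), by 0.64 for H2-K1, 0.54 for Tap1, 0.53 for H2-D1, and 0.46 for Tap2, and below it for Tapbp (-0.51) and Erap1 (-0.23), where 34.0% of all genes were lower. B2m differed by 0.071, with a 95% interval from -0.0018 to 0.14 (adjusted p = 0.0705 from limma), was called without SAM replicate 3 (0.10), and was on the other side of 0 with plain read totals (-0.025) and quantile normalization (-0.13). Psmb10 differed by -0.097, with a 95% interval from -0.25 to 0.059 (adjusted p = 0.239 from limma).

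Other genes of the pathway were taken from 7 lists with 77 genes, all members left out. The counts that follow stand beside 22.6% of all genes called higher and 23.4% lower under DZ, 30.6% and 31.0% under adenine, and 33.7% and 35.7% under SAM. Of 17 nonclassical or class I-like heavy chain genes 8 were in the table, and 5 were called higher under DZ, 2 under adenine, and 5 under SAM, while 1, 2, and 1 were lower. Their median log2 fold change was 0.83, 0.0049, and 0.45. H2-T22 (0.70, 0.62, and 1.05 under DZ, adenine, and SAM) and H2-Q4 (0.97, 0.86, and 1.32) rose in all 3 treatments. H2-T23, whose product Qa-1 shows peptides of other class I molecules to natural killer cells, had 1.05 under DZ, -0.31 under adenine, and 0.075 under SAM, which was called only with plain read totals (0.20). H2-M3, which presents formylated peptides, had 0.96, 0.094 (not called), and 0.63, and H2-K2 had 1.17, -0.087 (not called), and 0.43, a call under SAM that was lost without CTL replicate 3 (0.34) or SAM replicate 3 (0.38). Reads of these H2 genes may be shared with near-identical copies.

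The other 3 genes of that list are class I-like. Hfe, a regulator of iron uptake, was lower under adenine (-1.03) and SAM (-0.75) and not called under DZ (0.059). Mr1, which presents vitamin metabolites to innate-like T cells, was lower under DZ (-0.34) and higher under SAM (0.46), and its call under DZ was lost without CTL replicate 2 (-0.27), CTL replicate 3 (-0.34), or DZ replicate 2 (-0.30). Fcgrt, the heavy chain of the neonatal Fc receptor, was not called in any treatment (-0.12, 0.10, and 0.060), but with plain read totals it was called under adenine (0.16) and SAM (0.18).

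The list of peptide loading partners holds 8 genes, all measured. Higher calls numbered 5, 3, and 3 and lower calls 2, 4, and 4 under DZ, adenine, and SAM, with medians of 0.24, -0.035, and -0.14. Calr (0.26, 0.41, and 0.37) and Pdia3 (0.23, 0.36, and 0.29), whose products calreticulin and ERp57 sit with tapasin in the loading complex, rose in all 3 treatments, as Tapbp did. Tapbpl, a tapasin-related peptide editor, rose under DZ (0.67) and fell under adenine (-0.59) and SAM (-0.73), unlike Tapbp. The chaperone gene Hspa5 (0.29, -0.23, and -0.82) and the folding sensor gene Uggt1 (0.26, -0.15, and -0.52) also rose under DZ and fell under adenine and SAM, with calls under adenine that were lost with quantile normalization for Hspa5 (-0.033) and with plain read totals (-0.084), without adenine replicate 1 (-0.13), or without CTL replicate 3 (-0.13) for Uggt1. The chaperone gene Canx was lower in all 3 (-0.13, -0.15, and -0.35). Its fall under DZ was not called without CTL replicate 2 (-0.10), DZ replicate 2 (-0.13), or DZ replicate 3 (-0.11), without a variance trend (-0.13), with plain read totals (-0.10), or with quantile normalization (-0.061). Under adenine its call was lost with plain read totals (-0.085) and quantile normalization (-0.028). The glucosidase gene Prkcsh (-0.17, 0.075, and 0.067) was called under DZ only, but plain read totals and quantile normalization called it higher under adenine (0.14 and 0.12) and SAM (0.19 and 0.18). The glucosidase gene Ganab (-0.033, 0.13, and 0.079) was not called under DZ. Its calls under adenine (0.079) and SAM (0.040) were lost with median centring, and that under SAM also in each fit without 1 CTL library or without SAM replicate 1 or 2 (0.065 to 0.087) and in 4 other fits with the same value.

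Of 8 proteasome activator and assembly genes, all in the table, 4, 0, and 3 were higher and 1, 2, and 2 lower under DZ, adenine, and SAM, with medians of 0.17, 0.018, and 0.0029. Psme1 (0.43 under DZ and 0.39 under SAM) and Psme2 (0.56 and 0.34), the interferon-inducible activator subunits, rose in these treatments and were not called under adenine (0.014 and 0.18), where Psme2 was called without CTL replicate 3 (0.26) and with plain read totals (0.24). Pomp, which builds new proteasomes, rose under DZ (0.25) and SAM (0.26), and under adenine (0.10, not called) was called without adenine replicate 2 (0.15) and with plain read totals (0.17). Psmf1 rose under DZ (0.30), Psme4 fell under DZ (-0.29), Psme3 fell under adenine (-0.16) and SAM (-0.50), and Psmg2 fell under adenine (-0.24) and SAM (-0.38). Psme4 was called higher under SAM with plain read totals (0.16) and quantile normalization (0.11). Psmg1 was not called in any treatment (0.072, -0.11, and -0.030), but was lower under adenine with quantile normalization (-0.22).

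Of 10 cytosolic and ER peptidases, all in the table, 4, 0, and 1 were higher and 4, 4, and 6 lower under DZ, adenine, and SAM, with medians of 0.021, -0.076, and -0.24. Of 9 genes of surface trafficking and degradation, all in the table, 1, 0, and 1 were higher and 2, 4, and 6 lower, with medians of -0.030, -0.19, and -0.19.

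Of 22 regulator genes, all in the table, 8, 8, and 12 were higher and 2, 6, and 6 lower under DZ, adenine, and SAM, with medians of 0.075, 0.037, and 0.19. Among all genes 22.6%, 30.6%, and 33.7% were higher and 23.4%, 31.0%, and 35.7% lower. Under DZ, Stat2 (log2 fold change 1.69, standard error 0.048, adjusted p = 1.18e-12 from limma), Irf9 (1.47), and Irf1 (0.54) were among those with the smallest adjusted p-values. Stat2 and Irf9 encode parts of a factor that type I interferon activates. Stat2 was at 5.37, 5.28, and 5.35 log2 CPM in CTL, 6.94, 7.07, and 7.06 in DZ, 5.11, 4.99, and 5.15 in adenine, and 5.75, 5.77, and 5.69 in SAM. The groups did not overlap, with DZ and SAM above CTL and adenine below it. Under adenine Stat2 (-0.25) and Irf9 (-0.77) fell, and under SAM Stat2 rose (0.40) and Irf9 fell (-0.30).

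Irf1, an interferon-induced factor known to act on several of these promoters, took another course. It was at 4.84, 4.83, and 4.82 log2 CPM in CTL, 5.27, 5.48, and 5.36 in DZ, 5.69, 5.69, and 5.73 in adenine, and 6.04, 5.99, and 6.06 in SAM, with no overlap between groups. Its log2 fold changes were 0.54, 0.87, and 1.20. Nfkb1 (0.080 under DZ, not called, 0.50 under adenine, and 0.61 under SAM), Ifngr1 (0.021, not called, 0.46, and 0.64), and Rfx5 (-0.40, 0.48, and 0.55) were the other regulators with the smallest adjusted p-values under adenine or SAM.

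Nlrc5, the transactivator of class I genes, is named here outside the rule for named genes, after its values were seen. It was at 1.98, 2.14, and 2.02 log2 CPM in CTL, 3.03, 3.14, and 3.06 in DZ, 0.94, 0.78, and 0.58 in adenine, and 1.72, 1.42, and 1.11 in SAM. DZ was above CTL, and adenine and SAM were below it, without overlap. Its log2 fold change was 1.03 under DZ (standard error 0.14, adjusted p = 1.88e-05 from limma), adenine gave -1.28 (adjusted p = 8.02e-07), and SAM gave -0.63 (adjusted p = 8.14e-04).

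**Figure D5:**
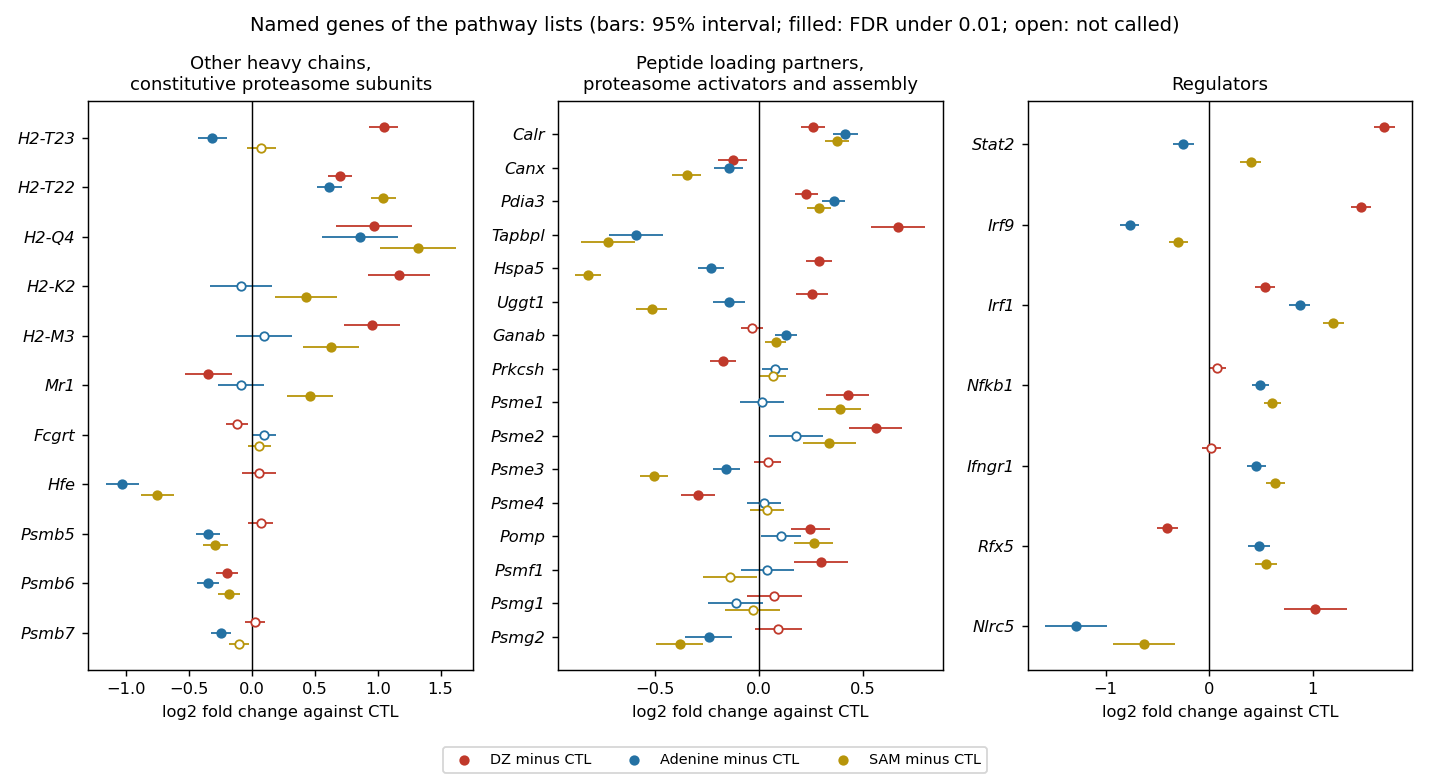
Log2 fold changes against CTL (horizontal axis, a scale of its own in each panel) of named pathway genes under DZ, adenine, and SAM, with 95% intervals from limma; filled points passed an FDR of 0.01. Under DZ, Stat2 (1.69) and Irf9 (1.47) stand far to the right, whereas Irf1 rises from DZ (0.54) to SAM (1.20) and Nlrc5 lies on both sides of 0.

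The genes with the most similar pattern were found by Pearson r over the 12 libraries among all non-member genes. The libraries fall into 4 groups of 3, so that a high r rests on few levels, and many genes reach it. For H2-K1 they were Ifitm3 (0.995), Eif6 (0.992), and Ifit1 (0.992), for H2-D1 Ehd1 (0.994), Tnfaip1 (0.986), and Trim34a (0.985), and for B2m Umps (0.983), Relb (0.978), and Tgtp2 (0.976). For Tap1, Dtx3l (0.983) and Parp9 (0.976) were among them, and for Tap2 Serpinb9 (0.963), Slc4a1ap (0.962), and Mrpl16 (0.961). For Tapbp they were Vcam1 (0.994), Zfp36l1 (0.994), and Ilf2 (0.994), for Psmb10 Arf6 (0.988), Nup54 (0.985), and Ly6e (0.985), and for Erap1 Zfp36l1 (0.984), Cldn1 (0.982), and Cav1 (0.982). Ifitm3, Ifit1, Dtx3l, Parp9, and Ly6e are known interferon-stimulated genes, and Relb and Vcam1 known NF-κB targets.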

How the data were processed

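RNA of 12 dishes of mouse fibroblasts was sequenced, in 4 groups of 3 taken from the sample labels. Per the labels and methods, the authors trimmed reads with Trimmomatic, aligned them with HISAT2 to GRCm39 guided by GENCODE vM27, quantified transcripts with StringTie, and normalized with edgeR. The deposited table holds log2 CPM with a prior count of 2 for 12591 genes. The method behind the scaling factors was not given in the sources used here. Whole reads were recovered from all 12 columns (100% within 0.1 of a whole number), so that depth was known, although StringTie reads are estimates from coverage.

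Each contrast was fitted on the deposited log2 CPM with limma 3.58.1 (R 4.3.3; lmFit, contrasts, eBayes with trend) over all 12 libraries, with Benjamini-Hochberg adjustment over all genes and FDR under 0.01, and the script was tested on simulated data. Ratios were compared by exact two-sided permutation tests. Tried as alternatives were an eBayes fit without trend, a robust eBayes fit, a mean of at least 3 log2 CPM, median centring, quantile normalization, plain read totals, a pseudocount of 1 CPM, voom on recovered reads, FDR of 0.05, a required log2 fold change of 0.5, only the groups compared, a replicate block, and each library left out in turn.

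The members and lists were chosen with earlier results of these data known. Named were the 8 members, every gene in the table of the lists of nonclassical heavy chains, loading partners, constitutive counterparts, and proteasome activators, the 4 regulators with the smallest adjusted p in each comparison with CTL, and for each member the 3 non-member genes with the highest r. Some genes that this rule names are not reported here. Positions and lengths came from GENCODE vM39 (12575 of 12591 identifiers matched) and promoters from RefSeq on GRCm38.p6. The second spelling of the response element core and the check of shared stretches of 76 bases were added after seeing the data. Python 3.11.15 (numpy 2.4.6, pandas 2.3.3, scipy 1.17.1, biopython 1.88, matplotlib 3.10.9) was used for tables, sequences, and plots.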

Additional observations from a re-analysis of the deposited data

How the results depend on the processing

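The number of members called moved by more than 1.5 times under 1 alternative, a required log2 fold change of 0.5, which left 3 of 8 under DZ, 1 of 7 under adenine, 4 of 7 under SAM, 4 of 7 for DZ against adenine, 1 of 6 for DZ against SAM, and 0 of 7 for SAM against adenine. Leaving out each library in turn gave 8 calls under DZ, 6 to 7 under adenine, 7 to 8 under SAM, 7 for DZ against adenine, 6 to 7 for DZ against SAM, and 6 to 7 for SAM against adenine. Single log2 fold changes had another sign under plain read totals for Tap1 under adenine (0.028), Erap1 between DZ and adenine (-0.021), and B2m between DZ and SAM (-0.025). Under quantile normalization B2m between DZ and SAM also had another sign (-0.13). Tap1 under adenine changed sign without CTL replicate 2 (0.025) or adenine replicate 2 (0.023), and lay between -0.067 and 0.025 over the fits without 1 library. None of these differences was called in the reported fit, B2m between DZ and SAM was called without SAM replicate 3 (0.10), and the cause was not tested. Under SAM, plain read totals moved the median over all genes from -0.015 to 0.11, so that changes there are relative to the authors' scaling. Of 858 values of single members over the alternatives, 806 kept their direction and side of the threshold, 38 lost a call, 8 gained one, and 6 changed sign.

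No strong pairing of the dishes by replicate number was seen. Deviations from the group means of same-numbered libraries had r between -0.14 and 0.18, and those of differently numbered libraries are not given for comparison. The replicate block gave 8, 7, 7, 7, 6, and 7 calls in the 6 comparisons, as without it. Under the filter on a mean of 3 log2 CPM, Tap1 was not tested. The planned ratios of Psmb8 to Psmb5 and of Psmb9 to Psmb6 were not run, since Psmb8 and Psmb9 had no row. Values rest on dishes of a single kind of cell and on transcript levels, and with 3 dishes a group no permutation test can go below 0.1.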
